A study of Homo sapiens with 5 samples.

Results

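The genes described here encode the extracellular and membrane part of the WNT pathway: the WNT ligands, the proteins that process and release them, the frizzled receptors, the LRP5 and LRP6 co-receptors, the secreted antagonists and the R-spondins. They were taken by a rule on gene symbols, set with earlier results of these data known. Of the 26506 genes in the deposited table, 47 met the rule. The 47 comprise 19 WNT ligands, 2 genes of ligand processing and secretion, 10 frizzleds, 2 co-receptors, 6 frizzled-related or WIF1-type WNT-binding antagonists, 4 DKK genes and 4 R-spondins. Expression was measured by RNA sequencing in H9, an established line of human embryonic stem cells, in 5 libraries with 1 library per group. The groups were B3GALT5-/- cells (B3GALT5-KO) in 2iLAF medium, labelled naive; wild-type (WT) cells in 5iLAF medium, labelled naive; WT cells in 2iLAF medium, labelled primed-naive; B3GALT5-KO cells in basal medium, labelled primed; and WT cells in basal medium, labelled primed. Both media add kinase inhibitors to growth factors and serve to reset primed cells, which resemble postimplantation epiblast, to an earlier naive state. The sources used here give neither their formulas nor whether the knockout line is 1 clone.

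WNT proteins are secreted lipid-modified ligands that bind a frizzled receptor. Together with LRP5 or LRP6 they block the breakdown of beta-catenin, which then activates genes through TCF and LEF factors. Other WNTs, typically WNT5A, WNT5B and WNT11, act mainly through routes that do not need beta-catenin. SFRP proteins, FRZB and WIF1 bind WNTs outside the cell, DKK1 blocks the LRP co-receptors, and R-spondins raise receptor levels by neutralising the ubiquitin ligases RNF43 and ZNRF3. In human pluripotent cells, WNT signalling is known for driving entry into primitive streak and mesoderm, and mouse embryos without Wnt3 form no primitive streak.

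With 1 library per group no difference has a replicate check, so every ratio and count describes these libraries and carries no p-value. The deposited values are TPM, a length-scaled unit that sums to the same total in each library, and the depth behind them is unknown. B3GALT5, the targeted gene, stood at 1.17 TPM in B3GALT5-KO 2iLAF, 2.08 in WT 5iLAF, 5.13 in WT 2iLAF, 5.98 in B3GALT5-KO basal and 9.31 in WT basal. The edited part of the gene is not given, so this level does not check the genotype. All 7 core pluripotency markers were at or above 1 TPM in each library, but their levels differed. In WT 2iLAF against WT basal, the ratio of (TPM + 1) was at least 2-fold up for 2 and down for 4. Over all genes those shares were 4.73% and 7.03%. NANOG stood at 16.5 TPM in WT 2iLAF and 171 in WT basal, and SOX2 at 324 and 161. Of 8 naive markers, 5 reached 1 TPM in B3GALT5-KO 2iLAF, 5 in WT 5iLAF, 5 in WT 2iLAF, 3 in B3GALT5-KO basal and 4 in WT basal. Their sum was 78.9 TPM in B3GALT5-KO 2iLAF, 106 in WT 5iLAF, 28.6 in WT 2iLAF, 10.03 in B3GALT5-KO basal and 10.2 in WT basal. The markers were split. DNMT3L stood at 51.4, 76.4, 1.57, 0.04 and 0.04 TPM and SUSD2 at 15.4, 14.8, 3.29, 4.85 and 3.22 TPM in that order. DPPA3 stood at 3.21, 4.1, 1.09, 0.79 and 2.15 TPM. KLF4 was highest in WT 2iLAF, at 7.57, 7.71, 20.5, 1.36 and 1.4 TPM in the same order. TFCP2L1 was lowest in B3GALT5-KO 2iLAF, at 1.38, 2.62, 2.15, 2.48 and 2.77 TPM. Both 2iLAF libraries had ARGFX, DPPA5 and KLF17 at 0, and WT 5iLAF had none of these above 0.20 TPM. The 6 primed markers summed to 521 TPM in B3GALT5-KO 2iLAF, 474 in WT 5iLAF, 1766 in WT 2iLAF, 3035 in B3GALT5-KO basal and 2757 in WT basal, and the 6 erythroid markers to 219.9, 12.2, 0.27, 3.30 and 219 TPM in that order.

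The promoters of 3 members are shown because these genes carry the main differences below: WNT3 as a ligand, DKK1 as an antagonist that was higher with it, and SFRP2 as an antagonist that was lower. The sequences are the 250 bases before the annotated start, from RefSeq on GRCh38.p14 and matched by symbol, whereas the submitters' processing notes name hg19. WNT3 lies at chr17:46818693-46818942 on the minus strand, DKK1 at chr10:52314031-52314280 on the plus strand and SFRP2 at chr4:153789084-153789333 on the minus strand. Capitals mark 3 motifs searched on both strands. The TCF/LEF word was spelled CTTTGAT or, as an alternative spelling, CTTTGAA. The TATA box was spelled TATAAA. The third motif, CCAAT, reads ATTGG where it lies on the other strand. No 2 marked words overlap.
WNT3: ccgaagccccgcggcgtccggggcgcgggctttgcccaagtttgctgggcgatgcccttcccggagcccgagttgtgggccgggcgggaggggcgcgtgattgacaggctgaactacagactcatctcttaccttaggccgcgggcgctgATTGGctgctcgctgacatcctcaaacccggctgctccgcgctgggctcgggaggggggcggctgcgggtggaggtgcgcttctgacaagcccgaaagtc
DKK1: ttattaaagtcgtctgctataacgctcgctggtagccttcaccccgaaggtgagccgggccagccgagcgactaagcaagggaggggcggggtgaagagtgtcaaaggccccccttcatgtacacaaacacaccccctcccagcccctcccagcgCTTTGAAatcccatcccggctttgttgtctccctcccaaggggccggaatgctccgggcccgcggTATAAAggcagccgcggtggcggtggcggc
SFRP2: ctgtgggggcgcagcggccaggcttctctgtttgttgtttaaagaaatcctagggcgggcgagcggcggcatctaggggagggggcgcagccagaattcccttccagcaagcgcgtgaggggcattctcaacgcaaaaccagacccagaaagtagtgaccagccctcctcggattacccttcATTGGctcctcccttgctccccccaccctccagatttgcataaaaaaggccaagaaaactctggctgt
DKK1 held CTTTGAA from -95 to -89 and TATAAA from -30 to -25, counted back from the start. SFRP2 held ATTGG from -68 to -64 and WNT3 from -100 to -96. Promoters were found for 33 of the 47 members, some with more than 1 start, which gave 38 sequences. The TCF/LEF word was in 1 of them, that of DKK1 (2.63%), against 5.94% of all 35116 promoters. CCAAT was in 14 (36.8%), against 32.0% of all promoters, and TATAAA in 3 (7.89%), against 10.7%. A match of letters describes the sequence and no binding.

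Of the 47 members, 39 reached 1 TPM in at least 1 library and entered the comparisons. A member is called higher or lower where the ratio of (TPM + 1) between 2 libraries was at least 2-fold. The added 1 shrinks the ratios of weakly expressed genes. The largest differences separated B3GALT5-KO 2iLAF and WT 5iLAF from the other libraries. In B3GALT5-KO 2iLAF against B3GALT5-KO basal, 20 members were higher and 7 lower, beside 15.9% and 11.8% of the 15761 genes compared. In WT 5iLAF against WT basal, 19 were higher and 7 lower, beside 10.7% and 11.4% of all genes. In WT 2iLAF against WT basal, 9 were higher and 2 lower, beside 4.73% and 7.03%. As shares of the 39 members, those higher counts are 51.3%, 48.7% and 23.1%. WNT2, WNT6, WNT8A, WNT10A, WNT10B, WNT11, DKK2, DKK4, FZD10, RSPO2 and RSPO3 reached 1 TPM only in libraries labelled naive. They entered through the libraries in which they were high, so the higher counts are not independent of the filter. The shares over all genes carry the same filter. The median log2 ratio over members was 1.26, 0.92 and 0.21 in these comparisons, against medians over all genes of 0.02, -0.06 and -0.13. That last shift of all genes is removed by median-ratio scaling, which moved the share of higher among all counted genes from 40.2% to 53.6% and changed no call of a member.

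**Figure D1:**
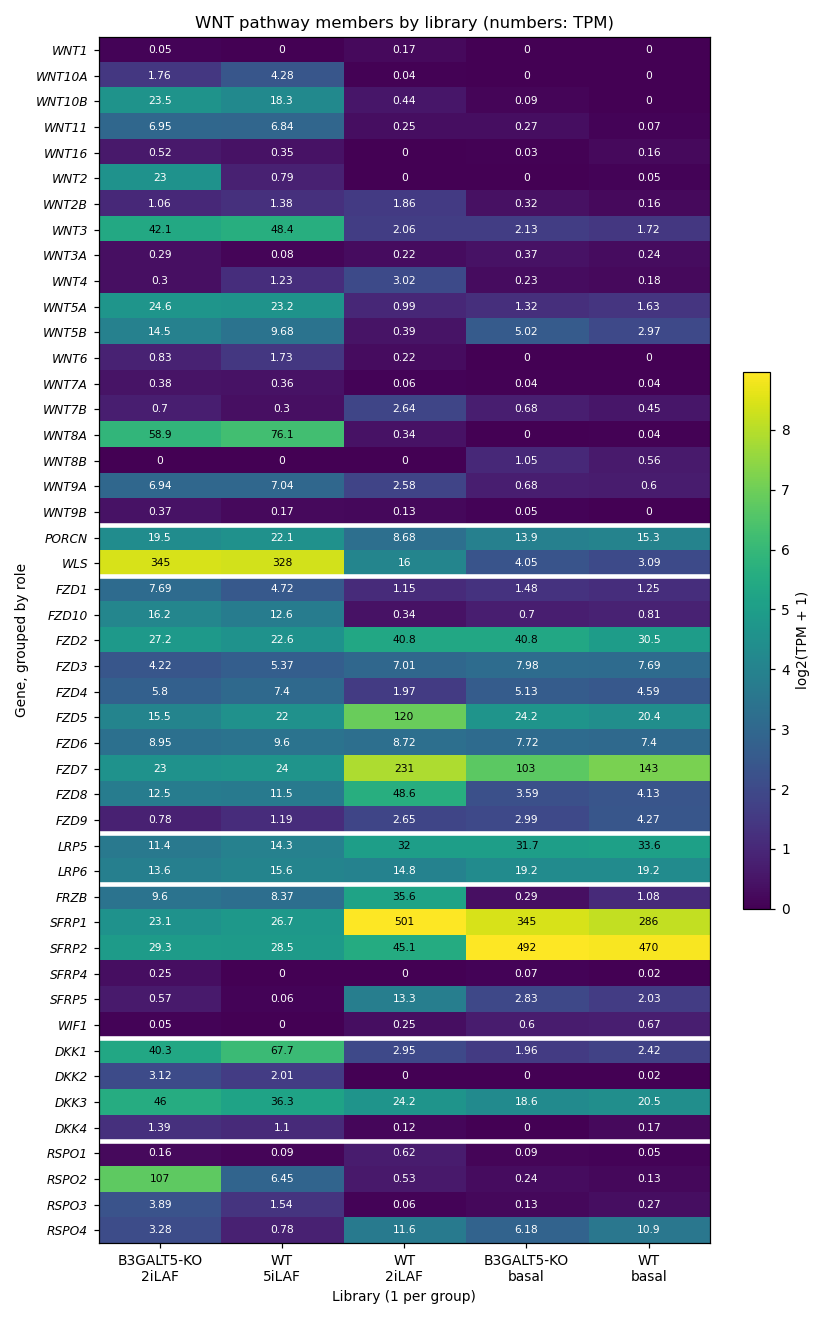
TPM of all 47 members (rows, grouped by role) in the 5 libraries (columns), with colour giving log2(TPM + 1) and the printed number giving TPM. The left pair of columns, B3GALT5-KO 2iLAF and WT 5iLAF, is bright for WLS, WNT8A, WNT3 and DKK1, and the 3 other columns are bright for SFRP1 and FZD7.

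WNT ligands were the class with the most members higher. Of the 14 that entered, 9 were higher and 1 lower in B3GALT5-KO 2iLAF against B3GALT5-KO basal, and 10 were higher and 0 lower in WT 5iLAF against WT basal. WNT8A, a ligand of the early primitive streak in vertebrate embryos, stood at 58.9 TPM in B3GALT5-KO 2iLAF, 76.1 in WT 5iLAF, 0.34 in WT 2iLAF, 0 (as listed) in B3GALT5-KO basal and 0.04 in WT basal. It was thus the most abundant ligand in both naive-labelled libraries and nearly undetected elsewhere. WNT3, a ligand of the beta-catenin route, stood at 42.1 TPM in B3GALT5-KO 2iLAF, 48.4 in WT 5iLAF, 2.06 in WT 2iLAF, 2.13 in B3GALT5-KO basal and 1.72 in WT basal. WNT3 TPM was 19.7-fold higher in B3GALT5-KO 2iLAF than in B3GALT5-KO basal, and 28.1-fold higher in WT 5iLAF than in WT basal. Its close relative WNT3A stayed at or below 0.37 TPM in every library.

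WNT5A, which mainly signals without beta-catenin, stood at 24.6 TPM in B3GALT5-KO 2iLAF, 23.2 in WT 5iLAF, 0.99 in WT 2iLAF, 1.32 in B3GALT5-KO basal and 1.63 in WT basal. WNT5B, its paralogue, stood at 14.5, 9.68, 0.39, 5.02 and 2.97 TPM in the same order of libraries. WNT5B was the most abundant ligand in both basal libraries, with 40.9% of summed ligand TPM in B3GALT5-KO basal and 33.5% in WT basal. WNT11, also of the beta-catenin-independent kind, stood at 6.95 TPM in B3GALT5-KO 2iLAF, 6.84 in WT 5iLAF, 0.25 in WT 2iLAF, 0.27 in B3GALT5-KO basal and 0.07 in WT basal. Ligands usually placed in either branch of the pathway were therefore higher in the same libraries.

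WNT10B, a beta-catenin ligand, stood at 23.5 TPM in B3GALT5-KO 2iLAF, 18.3 in WT 5iLAF, 0.44 in WT 2iLAF, 0.09 in B3GALT5-KO basal and 0 (as listed) in WT basal. WNT10A reached 1.76 TPM in B3GALT5-KO 2iLAF, 4.28 in WT 5iLAF and 0.04 in WT 2iLAF, and was listed at 0 in both basal libraries. WNT9A stood at 6.94, 7.04, 2.58, 0.68 and 0.60 TPM, in the order B3GALT5-KO 2iLAF, WT 5iLAF, WT 2iLAF, B3GALT5-KO basal and WT basal. It was higher than basal in each of the 3 non-basal libraries. WNT6 stood at 0.83 TPM in B3GALT5-KO 2iLAF, 1.73 in WT 5iLAF and 0.22 in WT 2iLAF and was listed at 0 in both basal libraries.

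A different set of ligands was highest in WT 2iLAF, all at low levels. WNT4, a ligand of kidney and gonad development, stood at 0.30 TPM in B3GALT5-KO 2iLAF, 1.23 in WT 5iLAF, 3.02 in WT 2iLAF, 0.23 in B3GALT5-KO basal and 0.18 in WT basal. WNT7B stood at 0.70, 0.30, 2.64, 0.68 and 0.45 TPM in the same order. WNT2B stood at 1.06 TPM in B3GALT5-KO 2iLAF, 1.38 in WT 5iLAF, 1.86 in WT 2iLAF, 0.32 in B3GALT5-KO basal and 0.16 in WT basal. Exons of WNT2B overlap ST7L on the other strand (GENCODE v29), and whether the authors' counting used strand is not given. WNT8B was found in the basal libraries alone, at 1.05 TPM in B3GALT5-KO basal and 0.56 in WT basal, and was listed at 0 in the other 3.

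Transcripts of WLS were higher along with most ligands, whereas those of PORCN passed 2-fold in no comparison with basal medium. WLS, the carrier that takes lipid-modified WNTs to the cell surface, stood at 345 TPM in B3GALT5-KO 2iLAF, 328 in WT 5iLAF, 16.0 in WT 2iLAF, 4.05 in B3GALT5-KO basal and 3.09 in WT basal. WLS TPM was 85.1-fold higher in B3GALT5-KO 2iLAF than in B3GALT5-KO basal, 106-fold higher in WT 5iLAF than in WT basal, and 5.19-fold higher in WT 2iLAF than in WT basal. It was the most abundant of the 47 members in B3GALT5-KO 2iLAF and in WT 5iLAF. PORCN, the enzyme that attaches the lipid, stood at 19.5 TPM in B3GALT5-KO 2iLAF, 22.1 in WT 5iLAF, 8.68 in WT 2iLAF, 13.9 in B3GALT5-KO basal and 15.3 in WT basal. PORCN thus varied little beside WLS and was lowest in WT 2iLAF.

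The frizzled-related antagonists ran the other way, with SFRP1 and SFRP2 taking most of the class. SFRP2 stood at 29.3 TPM in B3GALT5-KO 2iLAF, 28.5 in WT 5iLAF, 45.1 in WT 2iLAF, 492 in B3GALT5-KO basal and 469.7 in WT basal. SFRP2 TPM was 16.8-fold lower in B3GALT5-KO 2iLAF than in B3GALT5-KO basal, 16.5-fold lower in WT 5iLAF and 10.4-fold lower in WT 2iLAF than in WT basal, so it was low in every library outside basal medium. SFRP1 stood at 23.1 TPM in B3GALT5-KO 2iLAF, 26.7 in WT 5iLAF, 501 in WT 2iLAF, 345 in B3GALT5-KO basal and 286 in WT basal. SFRP1 was low in the naive-labelled libraries alone, 14.9-fold lower in B3GALT5-KO 2iLAF than in B3GALT5-KO basal and 10.7-fold lower in WT 5iLAF than in WT basal.

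FRZB did not follow the SFRP genes. It stood at 9.60 TPM in B3GALT5-KO 2iLAF, 8.37 in WT 5iLAF, 35.6 in WT 2iLAF, 0.29 in B3GALT5-KO basal and 1.08 in WT basal, higher than basal in all 3 other libraries. SFRP5 stood at 0.57, 0.06, 13.3, 2.83 and 2.03 TPM in the same order, with its peak in WT 2iLAF. SFRP4 and WIF1 stayed below 1 TPM in all 5 libraries. Summed over the 10 SFRP, FRZB, WIF1 and DKK genes, antagonist TPM, DKK3 included, was 154 in B3GALT5-KO 2iLAF, 171 in WT 5iLAF, 623 in WT 2iLAF, 861 in B3GALT5-KO basal and 782 in WT basal. Summed ligand TPM was 207, 200.2, 15.4, 12.3 and 8.87 in that order. Ligand transcripts therefore stood at 1.35 per antagonist transcript in B3GALT5-KO 2iLAF and 1.17 in WT 5iLAF, against 0.0247 in WT 2iLAF, 0.0143 in B3GALT5-KO basal and 0.0113 in WT basal. These are ratios of RNA levels and say nothing of protein amounts.

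**Figure D2:**
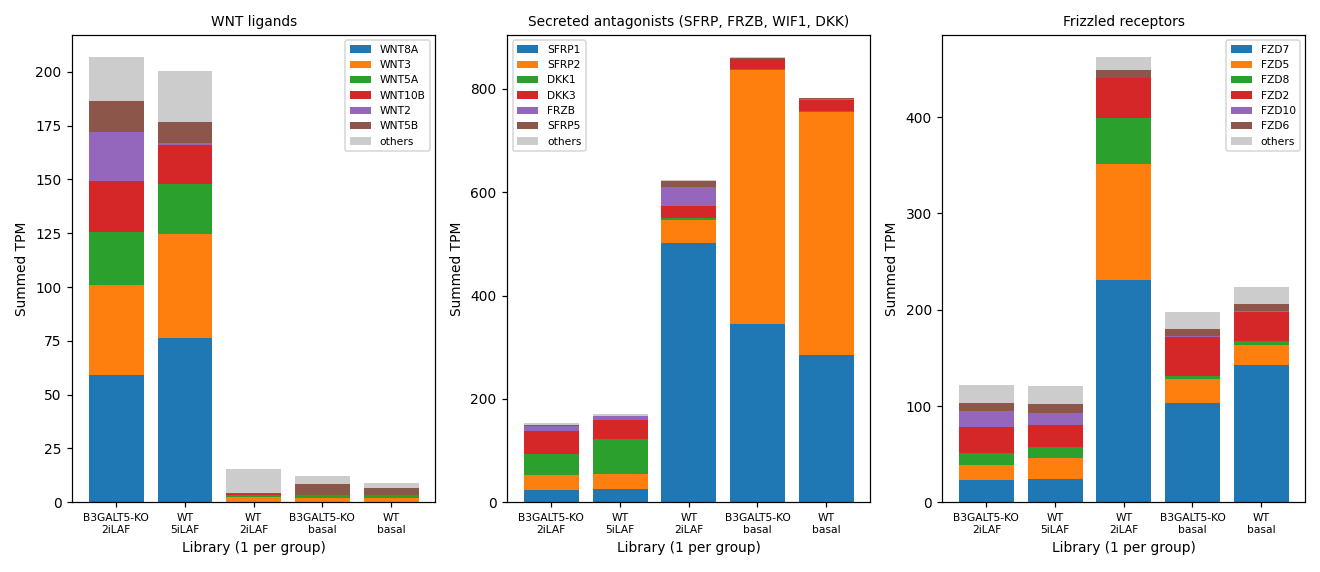
Summed TPM of the WNT ligands, the secreted antagonists and the frizzled receptors in each library, with 1 bar per library stacked by gene; the 3 panels have different scales. Ligand bars reach 207 and 200.2 TPM in B3GALT5-KO 2iLAF and WT 5iLAF and no more than 15.4 elsewhere, whereas antagonist bars reach 623 to 861 TPM in the 3 other libraries.

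DKK genes were higher in both naive-labelled libraries, though not all of them passed 2-fold in WT 5iLAF. All 4 were higher in B3GALT5-KO 2iLAF than in B3GALT5-KO basal, 2 of 4 in WT 5iLAF than in WT basal, and 0 of 4 in WT 2iLAF than in WT basal. DKK1, an inhibitor that WNT signalling itself induces, stood at 40.3 TPM in B3GALT5-KO 2iLAF, 67.7 in WT 5iLAF, 2.95 in WT 2iLAF, 1.96 in B3GALT5-KO basal and 2.42 in WT basal. DKK1 TPM was 20.6-fold higher in B3GALT5-KO 2iLAF than in B3GALT5-KO basal and 27.98-fold higher in WT 5iLAF than in WT basal. DKK3, a divergent member that is not a typical WNT inhibitor, stood at 46.0, 36.3, 24.2, 18.6 and 20.5 TPM in the order B3GALT5-KO 2iLAF, WT 5iLAF, WT 2iLAF, B3GALT5-KO basal and WT basal. DKK2 reached 3.12 TPM in B3GALT5-KO 2iLAF and 2.01 in WT 5iLAF, stood at 0.02 in WT basal and was listed at 0 in WT 2iLAF and B3GALT5-KO basal. DKK4 reached 1.39 TPM in B3GALT5-KO 2iLAF and 1.10 in WT 5iLAF and was at or below 0.17 in the other 3.

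Among the frizzleds, FZD7 took a smaller share in the naive-labelled libraries than in the others. FZD7, a main frizzled of human embryonic stem cells, stood at 23.0 TPM in B3GALT5-KO 2iLAF, 24.0 in WT 5iLAF, 231 in WT 2iLAF, 103 in B3GALT5-KO basal and 143 in WT basal. FZD7 took 18.8% of frizzled TPM in B3GALT5-KO 2iLAF and 19.8% in WT 5iLAF, against 49.9% in WT 2iLAF, 52.2% in B3GALT5-KO basal and 63.8% in WT basal. It led the family in every library except B3GALT5-KO 2iLAF, where FZD2 led with 22.3%. FZD10, nearly absent in the other libraries, stood at 16.2 TPM in B3GALT5-KO 2iLAF and 12.6 in WT 5iLAF, against 0.34 in WT 2iLAF, 0.70 in B3GALT5-KO basal and 0.81 in WT basal. FZD1 stood at 7.69, 4.72, 1.15, 1.48 and 1.25 TPM in the same order.

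FZD5 and FZD8, a closely related pair of receptors, were highest in WT 2iLAF. FZD5 stood at 15.5 TPM in B3GALT5-KO 2iLAF, 22.0 in WT 5iLAF, 120.4 in WT 2iLAF, 24.2 in B3GALT5-KO basal and 20.4 in WT basal. FZD8 stood at 12.5, 11.5, 48.6, 3.59 and 4.13 TPM in that order, so it was also above basal in the naive-labelled libraries. Summed frizzled TPM was 122 in B3GALT5-KO 2iLAF, 121 in WT 5iLAF, 462 in WT 2iLAF, 198 in B3GALT5-KO basal and 224 in WT basal.

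The other frizzleds differed less. FZD9 stood at 0.78 TPM in B3GALT5-KO 2iLAF and 1.19 in WT 5iLAF, against 2.65 in WT 2iLAF, 2.99 in B3GALT5-KO basal and 4.27 in WT basal. FZD2 ranged from 22.6 to 40.8 TPM, FZD3 from 4.22 to 7.98 and FZD6 from 7.40 to 9.60 over the 5 libraries, and none of these was counted in any comparison. FZD4 stood at 5.80, 7.40, 1.97, 5.13 and 4.59 TPM in the order B3GALT5-KO 2iLAF, WT 5iLAF, WT 2iLAF, B3GALT5-KO basal and WT basal. Its exons overlap PRSS23 on the other strand, which stood at 119.7 TPM in B3GALT5-KO 2iLAF, 46.2 in WT 5iLAF, 10.6 in WT 2iLAF, 4.32 in B3GALT5-KO basal and 5.67 in WT basal, so FZD4 levels are uncertain. LRP5 stood at 11.4 TPM in B3GALT5-KO 2iLAF, 14.3 in WT 5iLAF, 32.0 in WT 2iLAF, 31.7 in B3GALT5-KO basal and 33.6 in WT basal. LRP6 ranged from 13.6 to 19.2 TPM, so the co-receptor that led differed between the naive-labelled libraries (LRP6) and the others (LRP5).

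R-spondins set the 2 naive-labelled libraries apart from each other. RSPO2 stood at 107 TPM in B3GALT5-KO 2iLAF, 6.45 in WT 5iLAF, 0.53 in WT 2iLAF, 0.24 in B3GALT5-KO basal and 0.13 in WT basal. RSPO3 stood at 3.89, 1.54, 0.06, 0.13 and 0.27 TPM in that order, and its ratio between WT 5iLAF and WT basal lay exactly at the 2-fold limit. RSPO4 was at 3.28 TPM in B3GALT5-KO 2iLAF, 0.78 in WT 5iLAF, 11.6 in WT 2iLAF, 6.18 in B3GALT5-KO basal and 10.9 in WT basal, and led the family in the last 3. RSPO1 stayed below 1 TPM throughout.

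B3GALT5-KO 2iLAF and WT 5iLAF, the libraries labelled naive, were then compared with each other. Of 39 members, 3 (7.69%) were higher and 0 lower, beside 4.9% and 1.03% of all genes. The 3 were RSPO2, RSPO4 and WNT2. The log2(TPM + 1) values of the 2 libraries had a Pearson correlation of 0.87 across members and 0.97 across all genes. WNT2, a ligand of mesenchyme in the mouse lung, stood at 23.0 TPM in B3GALT5-KO 2iLAF, 0.79 in WT 5iLAF and 0.05 in WT basal, and was listed at 0 in WT 2iLAF and B3GALT5-KO basal. RSPO2 TPM was 16.6-fold and WNT2 TPM 29.1-fold higher in B3GALT5-KO 2iLAF than in WT 5iLAF. Markers of fibroblasts and feeder cells moved with RSPO2 and WNT2, but not with RSPO4, which was highest in WT 2iLAF at 11.6 TPM. The 7 fibroblast markers summed to 6008 TPM in B3GALT5-KO 2iLAF, 2032 in WT 5iLAF, 139 in WT 2iLAF, 77.8 in B3GALT5-KO basal and 65.0 in WT basal. All 7 were at or above 1 TPM in B3GALT5-KO 2iLAF and 6 in WT 5iLAF, and DCN was listed at 0 in the other libraries. The 6 granulocyte markers summed to 1032 TPM in B3GALT5-KO 2iLAF and 9.69 in WT 5iLAF, where S100A8 and ELANE were listed at 0. The 6 erythroid markers summed to 219.9 TPM in B3GALT5-KO 2iLAF, 12.25 in WT 5iLAF and 219 in WT basal. The part of these cell types in the RSPO2 and WNT2 difference was not tested. In bulk RNA, more cells of a type and more RNA per cell cannot be told apart.

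The medium changes into the naive-labelled libraries share no library and can be set side by side. Of the 20 members higher in B3GALT5-KO 2iLAF against B3GALT5-KO basal and the 19 higher in WT 5iLAF against WT basal, 17 were the same genes, 85.0% of the first list and 89.5% of the second. Among all genes the shared count was 1395, which is 55.7% and 82.3% of the same lists. Of 7 lower members in each comparison, 6 (85.7%) were the same: FZD7, FZD9, LRP5, SFRP1, SFRP2 and SFRP5. Among all genes 1295 lower genes were shared, which is 72.2% and 69.4% of the same lists. No member was counted in opposite directions, beside only 30 of all 15761 genes. Across the 39 members, the log2 ratios of the knockout and WT changes had a Pearson correlation of 0.92 and a Spearman correlation of 0.93, against 0.84 and 0.82 across all 15761 genes. Genes of 1 library share its composition, so these values describe the libraries.

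**Figure D3:**
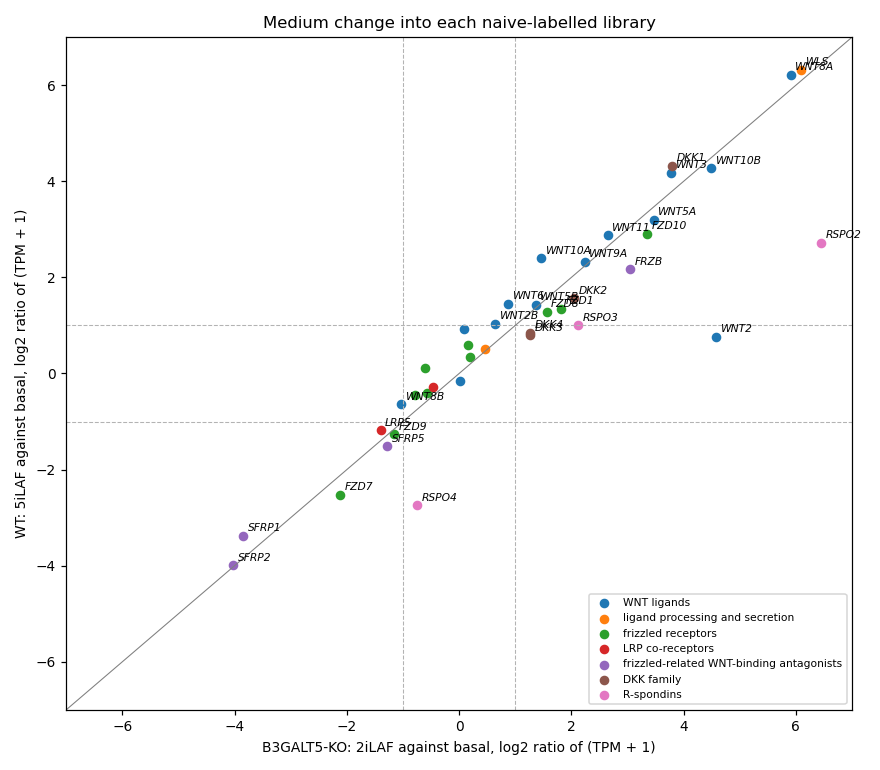
Each point is 1 of 39 members, with the log2 ratio of (TPM + 1) for B3GALT5-KO 2iLAF against B3GALT5-KO basal on the x axis and for WT 5iLAF against WT basal on the y axis; dashed lines mark 2-fold and the solid line equality. Most members lie near the line, WNT2 and RSPO2 lie to its right, and RSPO4 lies below it.

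Both naive-labelled libraries stood above the 3 others for 22 of 39 members (56.4%), beside 29.3% of all genes, and below them for 9 (23.1%), beside 26.9%. Among the 22 were all members that reached 1 TPM in naive-labelled libraries alone, so the filter favoured this count. The 22 included DKK1 to DKK4, WLS, PORCN and 10 ligands. Primitive streak and mesoderm markers other than TBX6 moved with these members. TBX6 stood at 2.88 TPM in B3GALT5-KO 2iLAF, 3.8 in WT 5iLAF, 4.27 in WT 2iLAF, 1.54 in B3GALT5-KO basal and 2.16 in WT basal. The 6 markers summed to 493 TPM in B3GALT5-KO 2iLAF and 531 in WT 5iLAF, where all 6 reached 1 TPM, against 5.75 in WT 2iLAF, 2.92 in B3GALT5-KO basal and 5.14 in WT basal, and HAND1 was listed at 0 in both basal libraries. The 5 endoderm markers summed to 981, 1936, 0.73, 4.32 and 5.21 TPM in the same order. The part of these cell states in the ligand and antagonist levels was not tested.

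Knockout cells were next compared with WT cells in 2iLAF medium. The knockout library held more ligand and DKK transcripts and fewer SFRP transcripts, and frizzleds went both ways. In all, 19 members were higher and 11 lower in B3GALT5-KO 2iLAF than in WT 2iLAF, beside 16.6% and 10.8% of all genes. Of the 14 ligands 9 were higher, and WNT4 and WNT7B were lower. WNT5B TPM was 37.2-fold, WNT5A 24.9-fold, WLS 21.5-fold, WNT3 20.4-fold and DKK1 13.7-fold higher in B3GALT5-KO 2iLAF. SFRP5 TPM was 23.3-fold, SFRP1 21.7-fold, FZD7 10.05-fold and FZD5 7.76-fold lower. Of the 10 frizzleds 3 were higher and 4 lower, and those higher were FZD10, by 47.8-fold, FZD1, by 6.69-fold, and FZD4, by 2.94-fold. SFRP2 was not counted, at 29.3 TPM in B3GALT5-KO 2iLAF and 45.1 in WT 2iLAF.

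Set against basal medium within each genotype, WLS, FZD8, FRZB and WNT9A were higher in 2iLAF in knockout and in WT cells, and SFRP2 was lower in both. The 4 are 20% of the members higher in knockout cells and 44.4% of those higher in WT cells, beside 12.3% and 41.5% of the lists over all genes. SFRP2 is 14.3% and 50% of the lower members, beside 22.2% and 37.5% of the lower lists over all genes. WNT3, WNT5A, WNT8A, WNT10B, DKK1 and FZD10 were past 2-fold in knockout cells only by this count. Their log2 ratios in WT cells lay between -0.43 and 0.53, and the difference between genotypes has no test with 1 library per group. SFRP1 had a log2 ratio of -3.84 in knockout cells and 0.81 in WT cells, and FZD7 of -2.12 and 0.69. FZD5 had -0.61 in knockout cells and 2.50 in WT cells. Of 6 neuroectoderm markers, 4 moved with the receptors and antagonists that were highest in WT 2iLAF. The 6 markers summed to 24.8 TPM in B3GALT5-KO 2iLAF, 40.8 in WT 5iLAF, 627 in WT 2iLAF, 14.5 in B3GALT5-KO basal and 11.5 in WT basal. Of them 4 reached 1 TPM in WT 2iLAF, where PAX6 and SOX1 were each at 0.27 TPM. OTX2 led the sum in WT 2iLAF with 420.5 TPM, and stood at 40.6 in WT 5iLAF and 9.67 in WT basal. SOX1 and LHX5 were listed at 0 in both naive-labelled libraries. Their part in the FZD5, FZD8, FRZB, SFRP1 and SFRP5 levels was not tested.

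**Figure D4:**
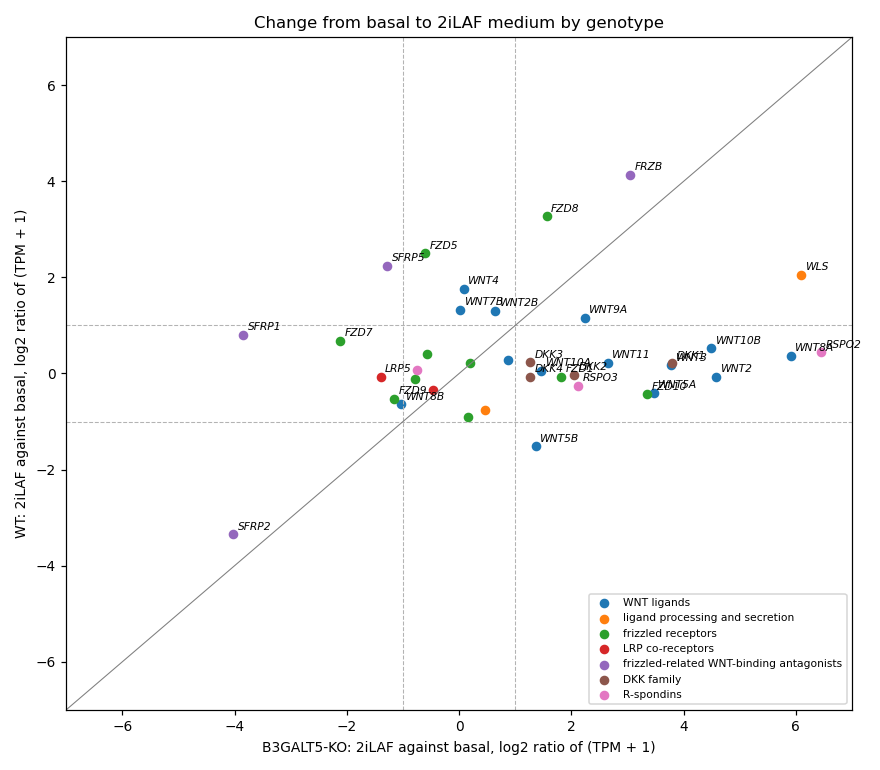
Each point is 1 of 39 members, with the log2 ratio of (TPM + 1) for 2iLAF against basal medium in B3GALT5-KO cells on the x axis and in WT cells on the y axis; dashed lines mark 2-fold and the solid line equality. Many ligands lie far right near 0 on the y axis, and SFRP1, FZD7, FZD5 and SFRP5 lie left of the line above 0.

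In basal medium few genes of any kind passed 2-fold between the genotypes. No member of 39 was counted in B3GALT5-KO basal against WT basal, beside 0.704% of all genes higher and 1.05% lower. At such shares a count of 0 among 39 genes says little about these members in particular. Summed ligand TPM was 12.3 in B3GALT5-KO basal and 8.87 in WT basal, and summed antagonist TPM was 861 and 782. The largest log2 ratios were those of RSPO4 at -0.73, with 6.18 TPM in B3GALT5-KO basal and 10.9 in WT basal, of FRZB at -0.69, with 0.29 and 1.08 TPM, and of WNT5B at 0.60, with 5.02 and 2.97 TPM. SFRP1, SFRP2 and FZD7, the leading members in basal medium, had log2 ratios of 0.27, 0.07 and -0.46. Without replicates, differences of this size cannot be told from variation between cultures.

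Further genes of the pathway were taken from 6 lists, to be read against the 15.9% of all genes higher and 11.8% lower in B3GALT5-KO 2iLAF against B3GALT5-KO basal, and the 10.7% and 11.4% in WT 5iLAF against WT basal. Feedback genes and direct targets were mostly higher in the libraries with high ligand levels. Of 9 genes, 6 were higher and 1 lower in B3GALT5-KO 2iLAF against B3GALT5-KO basal. In WT 5iLAF against WT basal, 6 were higher and 0 lower. The list medians were 2.49 and 2.84 on the log2 scale, against 0.28 in WT 2iLAF against WT basal. In that last comparison 3 of 9 were higher and 2 lower, beside 4.73% and 7.03% of all genes. MYC and NKD2, named here after their values were seen, were highest in basal medium. MYC had 94.7 TPM in B3GALT5-KO basal and 72.7 in WT basal, and at most 54.8 elsewhere. NKD2 had 10.7 and 12.7 TPM in the same libraries, and at most 7.4 elsewhere. SP5, a transcription factor induced by WNT, stood at 122 TPM in B3GALT5-KO 2iLAF, 109.6 in WT 5iLAF, 1.02 in WT 2iLAF, 0.15 in B3GALT5-KO basal and 0 (as listed) in WT basal. CDX1 stood at 58.8 TPM in B3GALT5-KO 2iLAF and 39.2 in WT 5iLAF and no higher than 0.08 elsewhere. TNFRSF19 stood at 13.7 TPM in B3GALT5-KO 2iLAF, 15.8 in WT 5iLAF and 19.6 in WT 2iLAF, against 0.11 in B3GALT5-KO basal and 0.37 in WT basal, so it did not separate WT 2iLAF from the naive-labelled libraries.

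Of 13 nuclear effectors, 3 were higher and 3 lower in each of those comparisons into the naive-labelled libraries. LEF1, a partner of beta-catenin, stood at 34.1 TPM in B3GALT5-KO 2iLAF, 16.2 in WT 5iLAF, 1.42 in WT 2iLAF, 0.29 in B3GALT5-KO basal and 0.34 in WT basal. TCF7L1, which mostly represses WNT targets, stood at 15.1 TPM in B3GALT5-KO 2iLAF and 13.2 in WT 5iLAF, against 136 in WT 2iLAF, 153 in B3GALT5-KO basal and 124 in WT basal. An activating and a repressing member of the same family thus stood in opposite order. The 16 cytoplasmic genes had 0 members counted in either comparison, so that layer of the pathway was level at this limit.

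Among the receptors of R-spondins and the receptor ligases, 2 of 5 were higher and 0 lower in B3GALT5-KO 2iLAF against B3GALT5-KO basal, and likewise in WT 5iLAF against WT basal. LGR5, an R-spondin receptor, stood at 9.0 TPM in B3GALT5-KO 2iLAF, 13.0 in WT 5iLAF, 0.04 in WT 2iLAF, 0.33 in B3GALT5-KO basal and 0.24 in WT basal. RNF43 stood at 13.1, 18.2, 1.56, 2.23 and 1.18 TPM in the same order. Other extracellular modulators had 4 of 8 higher and 1 lower in B3GALT5-KO 2iLAF against B3GALT5-KO basal, and 3 higher and 1 lower in WT 5iLAF against WT basal. NOTUM, an enzyme that removes the lipid from WNTs, stood at 6.05 TPM in B3GALT5-KO 2iLAF, 4.65 in WT 5iLAF, 2.77 in WT 2iLAF, 0.20 in B3GALT5-KO basal and 0.33 in WT basal.

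Of 12 alternative receptors and planar polarity genes, 3 were higher and 2 lower in B3GALT5-KO 2iLAF against B3GALT5-KO basal, and 3 higher and 1 lower in WT 5iLAF against WT basal. ROR2, a receptor for WNT5A, stood at 24.3 TPM in B3GALT5-KO 2iLAF, 36.8 in WT 5iLAF, 15.1 in WT 2iLAF, 4.86 in B3GALT5-KO basal and 6.40 in WT basal. ROR1, its paralogue, stood at 12.7, 10.7, 52.9, 41.0 and 38.2 TPM in that order, so the paralogues were opposite in the libraries with high WNT5A. In basal medium 1 gene of the 6 lists was counted, PRICKLE1, at 11.4 TPM in B3GALT5-KO basal and 4.73 in WT basal.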

How the data were processed

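Poly(A) RNA was sequenced in 5 libraries with a stranded TruSeq kit, per the labels' protocols. The submitters' processing notes name Trimmomatic 0.39, Bowtie2 2.3.4.1, RSEM 1.2.28 and hg19. The sources used here name neither the annotation nor the strand setting. The authors deposited TPM and FPKM values for 26506 genes, per the file headers; 18 further columns held no values. Low FPKM values showed no steps of whole reads (at most 4.83% of ratios in 1 bin of 0.05 on the log2 scale), so depth is unknown and values carry no counting interval. Each library was its own group. Values were compared as log2 ratios of (TPM + 1) in 6 comparisons among the 15761 genes reaching 1 TPM in 1 library, counted at 2-fold or more, with no test. Members, lists and comparisons were chosen with earlier results of these data known. Named were members reaching 10 TPM or counted in a comparison, and up to 4 genes of each list with the largest ratios. Member counts and member ratios were recomputed with median-ratio scaling, with FPKM, and with pseudocounts of 0.1 and 5. They were also recomputed with a minimum of 5 TPM and without a minimum. Class sums were recomputed with median-ratio scaling alone. Overlaps between comparisons, correlations, counts of members above or below the other libraries, ligand-to-antagonist ratios, and list and marker results were not recomputed. The counting was tested on simulated data. Python 3.11.15, numpy 2.4.6, pandas 2.3.3 and matplotlib 3.10.9 were used.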

Additional observations from a re-analysis of the deposited data

Results flagged for a closer look

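WNT5B and SFRP5 were past 2-fold in opposite directions when basal was exchanged for 2iLAF medium in knockout and in WT cells. They are 2 of 39 members, beside 190 of all 15761 genes. WNT5B had a log2 ratio of 1.37 in knockout cells and -1.51 in WT cells, a difference of 2.88, from 14.5 TPM in B3GALT5-KO 2iLAF, 0.39 in WT 2iLAF, 5.02 in B3GALT5-KO basal and 2.97 in WT basal. SFRP5 had -1.29 in knockout cells and 2.24 in WT cells, a difference of -3.53, from 0.57, 13.3, 2.83 and 2.03 TPM in the same libraries. With 1 library per group neither difference was tested.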

How the results depend on the processing

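No paired analysis was possible because each group holds 1 library, and none could be left out. No called value of a member changed sign under median-ratio scaling or FPKM, and the other alternatives could not change a sign. Median-ratio scaling kept all 97 called values. Dropping the filter or lowering the pseudocount to 0.1 can end no call by construction, and the lower pseudocount added 24. With a minimum of 5 TPM, 75 of the 97 stayed in, and the rest fell to the filter. A pseudocount of 5 ended 35 of the 97 and FPKM 16 of 91. With a pseudocount of 5, 11 members were higher in WT 5iLAF against WT basal, 5 were higher and 1 lower in WT 2iLAF against WT basal, 4 were lower in B3GALT5-KO 2iLAF against B3GALT5-KO basal, and 12 were higher in B3GALT5-KO 2iLAF against WT 2iLAF. FPKM also gave 4 lower in B3GALT5-KO 2iLAF against B3GALT5-KO basal. With a pseudocount of 0.1, 14 were higher and 6 lower in WT 2iLAF against WT basal, 6 higher and 2 lower in B3GALT5-KO 2iLAF against WT 5iLAF, and 1 higher and 2 lower in B3GALT5-KO basal against WT basal. A larger pseudocount shrinks ratios of low genes by construction, so counts among members at a few TPM are the least firm. Unknown depth limits what can be said of members below 1 TPM.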

Other observations

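Neighbouring ligand genes did not always share levels. By their order among protein-coding genes in RefSeq (GRCh38.p14), 3 pairs of WNT genes are direct neighbours. WNT3 stood at 42.1 TPM in B3GALT5-KO 2iLAF and 48.4 in WT 5iLAF, while WNT9B beside it was at 0.37 and 0.17 TPM. WNT10B stood at 23.5 TPM in B3GALT5-KO 2iLAF and 18.3 in WT 5iLAF, while its neighbour WNT1 was at 0.05 TPM in B3GALT5-KO 2iLAF and listed at 0 in WT 5iLAF. WNT10A and WNT6 were both low, at 1.76 and 0.83 TPM in B3GALT5-KO 2iLAF and 4.28 and 1.73 TPM in WT 5iLAF, and both were listed at 0 in the basal libraries.

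AXIN2, a feedback inhibitor named here after its values were seen, stood at 66.2 TPM in B3GALT5-KO 2iLAF, 74.6 in WT 5iLAF, 20.8 in WT 2iLAF, 10.9 in B3GALT5-KO basal and 9.56 in WT basal. CTNNB1, beta-catenin, also named after its values were seen, ranged from 346 to 478 TPM over the 5 libraries. Of the 39 members, 13 were highest in B3GALT5-KO 2iLAF, 9 in WT 5iLAF, 10 in WT 2iLAF, 4 in B3GALT5-KO basal and 3 in WT basal. The 8 members below 1 TPM in every library were WNT1, WNT3A, WNT7A, WNT9B, WNT16, SFRP4, WIF1 and RSPO1, with a highest value of 0.67 TPM for WIF1 in WT basal.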
